A study of Homo sapiens with 6 samples.

Results

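The resting expression profile of T24 cells transfected with a control small interfering RNA (siNC) is described here from 3 libraries, the control arm of a series of 6. T24 is an established human bladder cancer line, labelled as a bladder cancer cell of WT genotype. It is known as a carrier of an activating HRAS mutation. The cells were grown in RPMI medium with fetal bovine serum, and the 3 libraries, siNC replicates 1, 2 and 3, carry the same batch label. The other 3 libraries of the series, with USP43 silenced, enter no value below. Genes were kept where the mean siNC level was at least 1 FPKM, a level scaled to the gene's exonic size and the library total, so that genes can be set side by side. This rule kept 11462 of the 63241 genes in the table (18.1%), with a median level of 5.64 FPKM.

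The urothelium, the lining of the bladder, is built from basal cells that carry keratins such as KRT5, intermediate cells, and superficial umbrella cells coated with uroplakin proteins. Bladder cancers are often read by whether they keep the luminal factors GATA3, FOXA1 and PPARG, the basal keratins, or mesenchymal genes such as VIM. A line with active RAS signals through RAF, MEK and ERK kinases to immediate targets such as the AP-1 factor FOSL1 and to feedback inhibitors of the DUSP and SPRY families.

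The siNC libraries held 24049555, 24559697 and 24594508 gene counts, of which 5.46 to 5.77% came from the mitochondrial genome. Between 11492 and 11510 genes reached 1 FPKM in a given library. The genes kept had a median of 904 counts per library, while 125 of them had a mean count below 10, and 119 of those had an exonic size below 200 bases. The labels do not say whether the 3 replicates are separate cultures, so the SD given with a level is the spread between these libraries, which may be technical. A single group allows no test between conditions, and 3 values against 3 cannot give an exact permutation p below 0.1, so levels are described by their values, SD and overlap.

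Of 19842 nuclear protein-coding genes, 10125 reached 1 FPKM. The range from 1 to 10 FPKM held 6612 of them, the range from 10 to 100 held 3286, and 227 lay at 100 FPKM or more. A further 6606 had counts but lay below 1 FPKM, and 3111 (15.7%) had no count in any of the 3 libraries. Over all protein-coding genes 51.1% reached 1 FPKM, which is the background for the counts of listed genes given below. Genes just inside the threshold included AGO3, an Argonaute protein, at 1.08, 1.06 and 0.88 FPKM, and BLTP1 at 1.03, 0.99 and 1.00. Just outside were PCDHGB5, a clustered protocadherin, at 0.89, 1.07 and 1.03 FPKM, and B9D2 at 0.95, 1.09 and 0.95. In each of these 4 genes the libraries fell on both sides of 1 FPKM, so membership near the threshold was not resolved by these libraries.

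Protein-coding genes took 92.6% ± 0.06 (SD, n = 3) of the summed FPKM. The 50 highest genes alone took 30.1% ± 0.53 (SD, n = 3), and the 1000 highest took 64.4% ± 0.59. Those 50 comprised 16 mitochondrially encoded genes, 14 cytosolic ribosomal protein genes, 1 ribosomal protein pseudogene, 4 glycolysis enzymes, 4 genes of actins, tubulins, thymosins and filaments, and 11 others. The mitochondrial genes held 20.1% ± 0.36 of the summed FPKM but 5.58% ± 0.17 of the counts, FPKM being divided by gene size. MT-CO1, a cytochrome oxidase subunit, ranked highest at 7654, 7775 and 8096 FPKM.

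**Figure D1:**
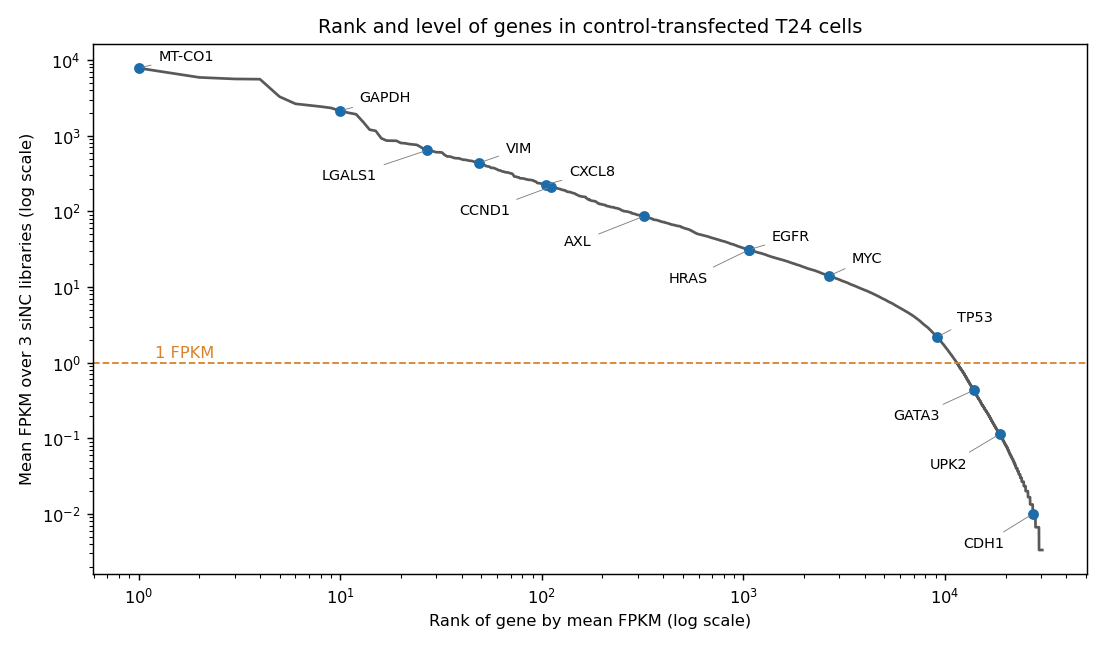
Mean FPKM over the 3 siNC libraries (y axis, log scale) against the rank of each gene by that mean (x axis, log scale), with selected genes marked and the 1 FPKM threshold dashed. Levels run from MT-CO1 at 7842 FPKM at rank 1 through VIM at 438 and EGFR at 31.1 to GATA3 at 0.43 and CDH1 at 0.010, below the threshold.

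Among nuclear genes, glycolysis, translation, iron storage and the actin cytoskeleton stood at the top. GAPDH, the glycolytic enzyme, led with 2053, 2080 and 2261 FPKM, and TMSB10, a small actin-binding thymosin, followed with 1930, 1968 and 2129. For both genes replicate 3 was the highest library, and the ranges of the 2 genes overlapped. EEF1A1, which delivers tRNA to the ribosome, stood at 802 ± 38 FPKM (SD, n = 3). The ferritin chains FTH1 and FTL, which store iron, stood at 767 ± 35 and 757 ± 38 FPKM and overlapped between libraries. ACTG1 stood at 776 ± 20 and ACTB at 629 ± 5.9 FPKM. With the size of the longest GENCODE release 29 coding transcript in place of the table's exonic size, their order turned, to 1393 for ACTG1 and 1442 for ACTB. That size also set the ferritin chains apart, with FTH1 at 1250 and FTL at 751. GAPDH then stood at 2724, the ribosomal protein gene RPS2 at 2224 and TMSB10 at 1867, so closeness in level between these genes depends on the size used.

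The other leading nuclear genes included several that are not part of general upkeep. LGALS1, a secreted galectin, stood at 614, 630 and 686 FPKM. HMGA1, a chromatin protein abundant in embryonic and cancer cells, stood at 596, 613 and 652 FPKM. SRGN, the core protein of a secretory granule proteoglycan best known from blood cells, stood at 475, 470 and 456 FPKM. These 3 genes lay within the same range of ranks as ribosomal protein genes such as RPS12 (600 FPKM) and RPL10 (472 FPKM).

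Glycolysis was carried by a particular set of isoenzymes. The 17 glycolysis genes counted all reached 1 FPKM and held 2.203% ± 0.036 of the summed FPKM. After GAPDH came ENO1 (605 ± 17 FPKM), PGAM1 (531 ± 6.3), LDHA (464 ± 4.7), TPI1 (390 ± 13), PKM (367 ± 8.2) and PGK1 (209 ± 1.6). With the coding transcript size this order changed, to ENO1 at 1345, LDHA at 1158, PKM at 1157, PGAM1 at 738, TPI1 at 597 and PGK1 at 233. LDHA, the lactate dehydrogenase chain that favours lactate formation, exceeded LDHB (145 ± 4.3 FPKM) 3.21 times and was higher in 3 of 3 libraries. PGAM2 and PKLR, the muscle and the liver and red cell relatives of PGAM1 and PKM, had 0 counts in all 3 libraries. Hexokinase was led by HK1 at 47.6 ± 0.92 FPKM, with HK2 at 6.76 ± 0.16 (81.8 and 6.93 with the coding transcript size), and glucose uptake by SLC2A1 at 22.1 ± 0.63. ALDOA stood at 41.9 ± 1.7 FPKM, below TPI1 and GAPDH but close to the phosphofructokinase PFKP (39.3 ± 0.68). The exons of ALDOA lie on the same strand as another gene of the table, ENSG00000285043. Whether shared reads lower the level of ALDOA was not tested.

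Some lineage markers of both epithelial and mesenchymal cells were high. In RNA from a whole culture, fewer cells of a type and less RNA per cell cannot be told apart. Of 13 simple epithelial markers 5 (38.5%) reached 1 FPKM, a lower share than the 51.1% of all protein-coding genes. The sum over the list was 526 to 543 FPKM across libraries. KRT7, a keratin of simple and transitional epithelia, stood at 234.9, 240.3 and 232.5 FPKM, its partner KRT18 at 190, 196 and 206, and KRT8 at 86.2, 88.4 and 89.5. KRT19 was lower at 12.03 ± 0.32 FPKM. The junction and polarity genes of the same list were near or below the threshold. CLDN4 stood at 1.12 FPKM, EPCAM at 0.59 and the splicing factor ESRP1 at 0.40. CDH1, the cadherin of epithelial junctions, had 0, 3 and 1 counts, a mean of 0.010 FPKM. GRHL2, a factor that maintains epithelial identity, had 0 counts, which allows at most 0.0057 FPKM by a floor of 3 counts over the 3 libraries.

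Some mesenchymal markers, led by VIM and FN1, were high beside these keratins. Of 13 listed, 8 (61.5%) reached 1 FPKM, against 51.1% of all protein-coding genes. The list summed to 759 to 762 FPKM. VIM, the intermediate filament of mesenchymal cells, stood at 430, 431 and 451 FPKM, and FN1, fibronectin, at 220, 218 and 202. SPARC stood at 67.2 ± 0.77 FPKM and CDH2, the N-cadherin, at 18.8 ± 0.86, above every other of the 8 cadherins listed. Among the factors that drive the mesenchymal state, SNAI2 stood at 11.6 ± 0.75 FPKM and ZEB1 at 3.33 ± 0.48, while SNAI1 was at 0.38, PRRX1 at 0.013 and TWIST1 at 0 counts. VIM was also alone among 7 type III and IV filament genes in reaching 1 FPKM, since NES, the next, stood at 0.33.

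The labelled cell type, a bladder cancer cell, was checked against markers of differentiated urothelium, and these were mostly at trace levels. Of 10 umbrella cell markers only PSCA (2.25 ± 0.04 FPKM) and FABP4 (1.90 ± 0.067) reached 1 FPKM. The uroplakins were at trace levels, with 5, 3 and 3 counts of UPK2, 3, 3 and 4 of UPK1A, and 0, 1 and 0 of UPK1B. KRT20 had 0 counts, which allows at most 0.018 FPKM. The basal keratins KRT5, KRT6A and KRT16, the desmosomal cadherin DSG3 and S100A7 also had 0 counts in all 3 libraries, and KRT14 and TP63, the basal master factor, had 3 counts each in all. Of 13 basal and squamous genes only CD44, a hyaluronan receptor with wide expression, at 102, 103 and 96.3 FPKM, and DSC3 at 9.17 ± 0.82 reached 1 FPKM.

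Most luminal factors reached the threshold, GATA3 and GRHL3 being the exceptions. Of 10 listed, 8 reached 1 FPKM, at a median of 4.17. RXRA, the retinoid X receptor, stood at 8.56 ± 0.58 FPKM, KLF5 at 7.99 ± 0.40, the pioneer factor FOXA1 at 6.67 ± 0.33, ERBB2 at 6.52 ± 0.16 and PPARG at 1.92 ± 0.11. With the coding transcript size RXRA moved to 56.0 and PPARG to 11.3, so the levels of these 2 genes depend on the size used. GATA3, the factor most used to identify urothelium, stood at 0.46, 0.40 and 0.43 FPKM, and GRHL3 had 2, 0 and 2 counts. The GATA family was led instead by GATA6 at 6.14 ± 0.43 FPKM and GATA2 at 5.20 ± 0.19, an order that turned to GATA2 (7.60) over GATA6 (6.19) with the coding transcript size. UCA1, a noncoding RNA named after urothelial cancer, stood at 6.48, 5.76 and 6.99 FPKM.

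**Figure D2:**
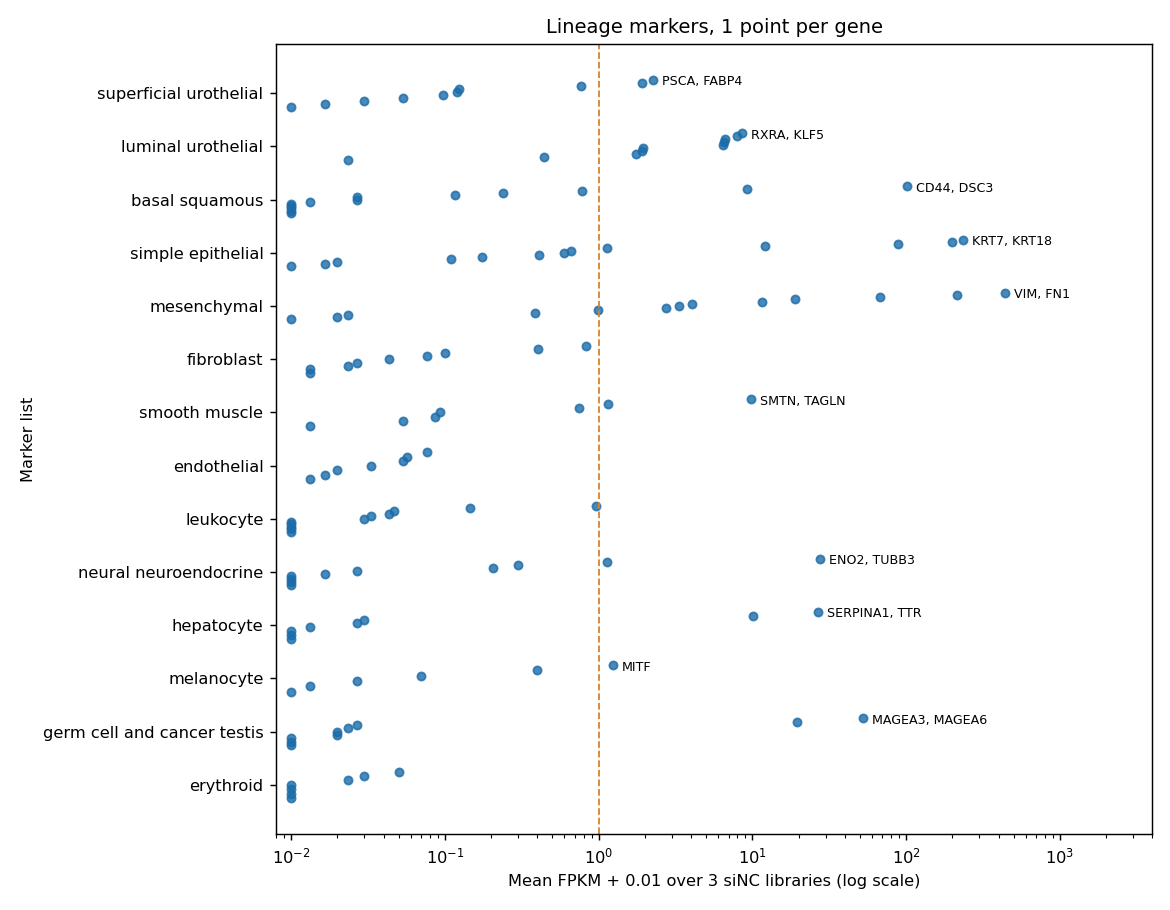
Mean FPKM + 0.01 over the 3 siNC libraries (x axis, log scale) for the genes of 14 marker lists (y axis), 1 point per gene, with up to 2 highest members at or above 1 FPKM named and the threshold dashed. Points at the left edge are genes listed at 0.00 FPKM. The simple epithelial and mesenchymal lists each reach above 100 FPKM, with KRT7 at 236 and VIM at 438, while no fibroblast, endothelial, leukocyte or erythroid marker reaches 1 FPKM.

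Markers of several other cell types lay below the threshold. None of 9 fibroblast, 7 endothelial, 11 leukocyte or 7 erythroid markers reached 1 FPKM, and their sums over the lists ran from 1.21 to 1.62, 0.16 to 0.26, 1.02 to 1.41 and 0.04 to 0.11 FPKM. The leukocyte genes CD3E, CD3D and MS4A1 had 0 counts, PTPRC had 1 count in all, and the nearest to the threshold was CD14 at 0.95 FPKM. Of 7 smooth muscle markers, SMTN (9.77 ± 0.33 FPKM) and TAGLN (1.08, 1.19 and 1.18) reached 1 FPKM, the list summed to 11.6 to 12.1, and ACTA2 stood at 0.73, MYH11 at 0.077, DES at 0.043 and MYOCD at 0.0033. Of 6 melanocyte markers MITF alone reached it, at 1.23 ± 0.045 FPKM, the list summed to 1.65 to 1.77, and TYR had 0 counts. In other lists a few markers were high beside silent ones. SERPINA1, the liver's antitrypsin, stood at 26.8 ± 0.34 FPKM and TTR, a liver and choroid plexus carrier protein, at 6.64, 7.35 and 16.2, while ALB, APOA1 and APOB had 0 counts. ENO2, the neuronal enolase, stood at 27.6 ± 0.54 FPKM, while CHGA, NEUROD1, INSM1 and SOX2 had 0 counts. Of 9 germ cell and cancer testis genes, MAGEA3 (52.4 ± 0.72 FPKM) and MAGEA6 (19.6 ± 0.37) reached 1 FPKM, and CTAG1B, PRAME and SSX1 had 0 counts. MAGEA3 and MAGEA6 are near-identical copies, and the authors' counting could have divided reads between them. In the wider MAGE family MAGEB2 stood at 37.5 ± 0.87 FPKM, MAGEA1 at 22.8 ± 0.39 and MAGEA12 at 15.6 ± 0.35.

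Every gene listed for the RAS to ERK chain was expressed. All 18 listed reached 1 FPKM, with a median of 10.7 and sums from 310 to 313 FPKM. At the level of RAS itself, RRAS2 led with 55.2, 52.95 and 54.04 FPKM, ahead of HRAS at 30.5, 29.9 and 32.8. RRAS (28.9 ± 2.5 FPKM) overlapped HRAS above it and NRAS (27.2 ± 1.3) below it. MRAS was below the threshold at 0.42 FPKM. HRAS, the mutated member by background knowledge, was not the highest. It exceeded RRAS in 3 of 3 libraries, though their ranges overlapped, and with the coding transcript size RRAS2 stood at 91.9, HRAS at 61.3 and RRAS at 30.5. Among RAF kinases ARAF stood at 18.6 ± 0.62 FPKM against 1.13 ± 0.086 for BRAF, which rose to 2.76 with the coding transcript size. The ERK kinase MAPK3 stood at 11.9 ± 0.38 FPKM.

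ERK targets and feedback genes were among the more abundant regulators. Of 14 listed, 13 reached 1 FPKM, with a median of 15.6. FOSL1, the AP-1 factor named above, stood at 205, 205 and 222 FPKM, 10.4 times FOSL2 (20.3 ± 0.07), while FOS itself stood at 0.36, 0.70 and 0.35. PHLDA1 stood at 51.3 ± 0.91 FPKM, IER3 at 36.7 ± 1.1, the ETS factors ETV5 and ETV4 at 22.0 ± 1.1 and 17.2 ± 0.45, and the phosphatase DUSP6 at 14.04 ± 0.66. SPRY2 stood at 12.2 ± 0.16 and SPRY1 at 1.09 ± 0.18. DUSP4, a nuclear ERK phosphatase, was alone below the threshold at 0.77 ± 0.085 FPKM.

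Receptor tyrosine kinases were dominated by a few genes. AXL, the receptor for GAS6, stood at 84.6, 85.8 and 89.1 FPKM, 31.8 times MERTK. MET, the hepatocyte growth factor receptor, stood at 43.9, 42.5 and 39.8 FPKM, EPHA2 at 35.3 ± 0.16 and EGFR at 31.4, 31.8 and 30. EGFR exceeded ERBB2 4.76 times, and ERBB4 had 10, 3 and 4 counts. The FGF receptors were low, with FGFR1 at 2.35 ± 0.07 and FGFR4 at 1.197 ± 0.084 FPKM, and FGFR3, which is often mutated in papillary bladder tumours, at 0.13. None of the 5 class III receptor kinases reached 1 FPKM, and KIT had 0 counts. HBEGF stood at 9.41 ± 0.14 FPKM and TGFA at 6.64 ± 0.093, both ligands of EGFR.

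In the PI3K chain 16 of 17 genes reached 1 FPKM. Of the catalytic subunits PIK3CD, known mainly from leukocytes, stood highest at 13.90, 14.66 and 14.81 FPKM, above PIK3CB at 7.88 ± 0.031 and PIK3CA at 2.31 ± 0.22. The ranges of these 3 genes did not overlap. Another gene known mainly from blood cells, RAC2, stood at 50.4 ± 2.2 FPKM against 28.2 ± 0.29 for its widespread relative RAC1, an order that turned with the coding transcript size to 89.0 for RAC2 and 100.3 for RAC1. The regulatory subunit PIK3R2 fell outside at 0.37 ± 0.046 FPKM, and its exons share a strand with ENSG00000268173.

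Components of the TGF-beta, WNT, Notch and Hippo pathways were expressed. TGFB1 stood at 22.9 ± 1.5 FPKM, 49.7 times TGFB3, and its receptor TGFBR2 at 57.3 ± 3.3 against 3.94 ± 0.20 for TGFBR1. SMAD3, a transducer of that signal, stood at 34.6 ± 0.57 FPKM, 4.22 times the next SMAD gene, SMAD5. Of 16 WNT ligands 4 reached 1 FPKM, led by WNT5B at 18.6 ± 0.30 and WNT7B at 9.10 ± 0.45, and FZD6 led the receptors at 32.9 ± 1.3. NOTCH2 stood at 13.8 ± 0.52 and its ligand JAG1 at 3.15 ± 0.29. The Hippo effectors YAP1 (19.3 ± 0.79) and WWTR1 (17.5 ± 1.2) overlapped, and with the coding transcript size WWTR1 (29.1) exceeded YAP1 (22.6). Of 10 YAP target genes 9 reached 1 FPKM, including F3, tissue factor, at 82.3 ± 1.2 and CCN1 at 62.4 ± 0.84.

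Cell cycle genes were abundant, with all 17 proliferation genes at or above 1 FPKM and a median of 28.6. CCNB1, the mitotic cyclin, stood at 93.9, 96.7 and 97.2 FPKM, and MKI67 at 17.6 ± 0.16. Among G1 regulators a D cyclin stood out. CCND1 stood at 214, 212 and 209 FPKM, 23.0 times CCND3 (234 and 22.1 with the coding transcript size, 10.6 times), while CCND2 had 2, 3 and 0 counts. CDK4 stood at 45.4 ± 0.049 FPKM, 8.93 times CDK6. The inhibitors were present too, with CDKN1A at 21.1 ± 1.1 and CDKN2A at 14.03 ± 0.86 FPKM. MYC stood at 14.05 ± 0.66, MYCL at 0.050 and MYCN at 0 counts. The 2 genes that name the series were modest in these cells. USP43, a deubiquitinase, stood at 2.36, 2.09 and 2.08 FPKM, rank 9168, and E2F1, an activator of S phase genes, at 12.9, 12.9 and 12.4, rank 2948.

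**Figure D3:**
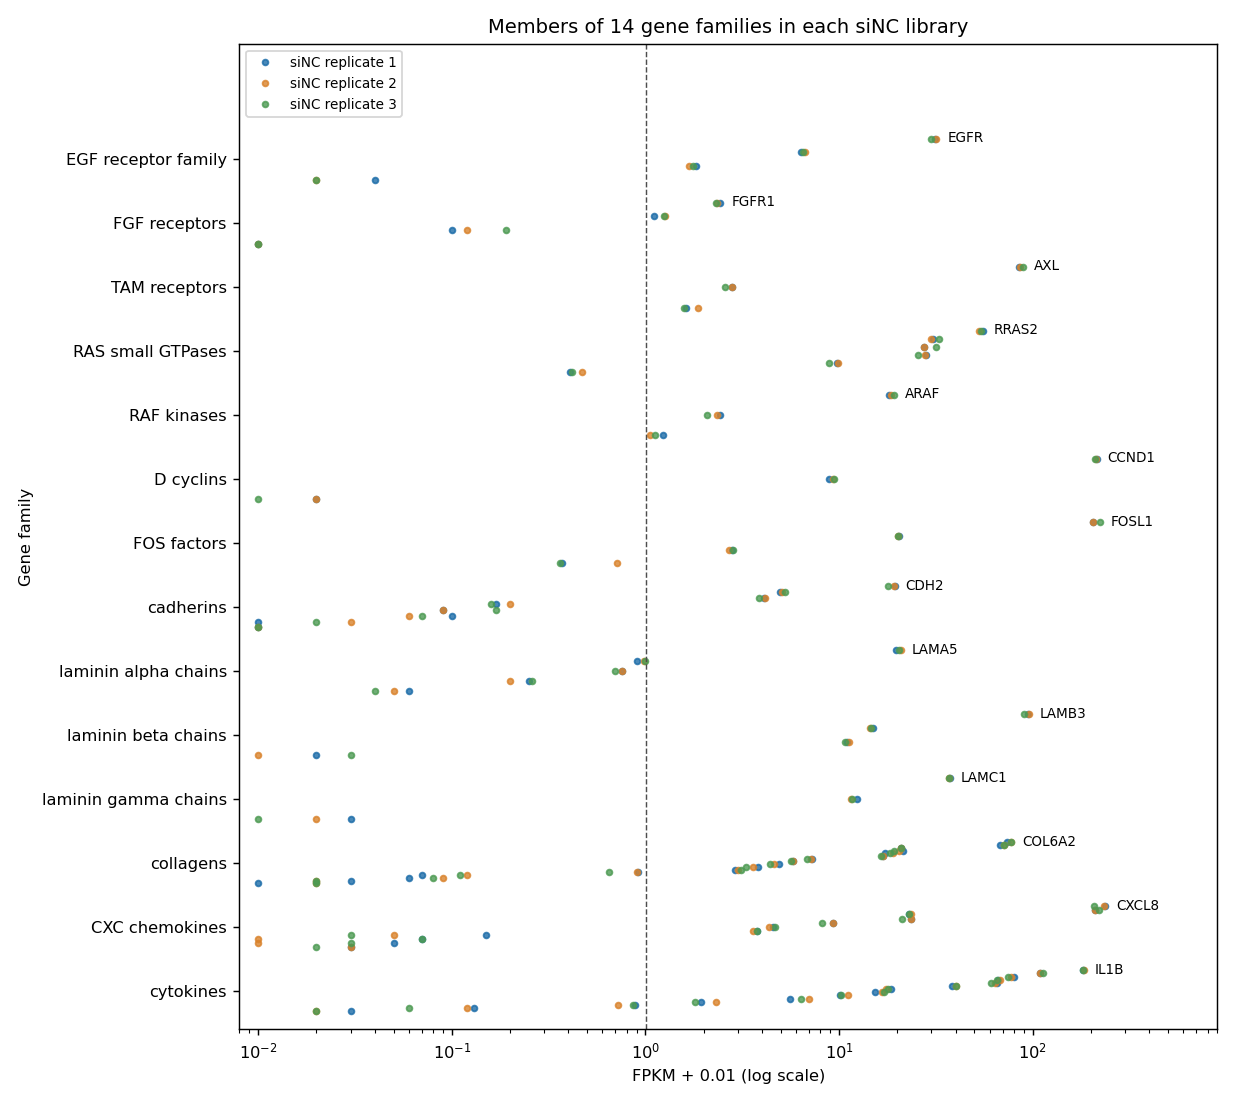
FPKM + 0.01 (x axis, log scale) of every member of 14 gene families (y axis) in siNC replicates 1, 2 and 3 (colours), with the highest member by mean named and the 1 FPKM threshold dashed. CCND1 at 212, FOSL1 at 211 and AXL at 86.5 FPKM stand far to the right of their relatives, while CXCL8 and its next member, CXCL1, lie close together.

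Most of the 142 families had a clear leading member. In 140 of them the highest member reached 1 FPKM, and in 136 that member also exceeded the next in 3 of 3 libraries. The leading member held a median of 63.6% of its family's summed FPKM. In 38 families it stood at least 10 times above the next or the next was at 0, in 38 it stood below 1.5 times, and in 24 no other member reached 1 FPKM. Of 807 distinct members, 297 lay below 1 FPKM and 55 had no count. When members were ordered by level, 45 of 370 neighbouring pairs overlapped between libraries, at a median ratio of 1.05, and the 325 pairs that stood apart had a median ratio of 1.74. With the coding transcript size the leading member changed in 16 families, so an order between close members is not settled by the libraries alone.

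Further families were led by genes of differentiation, oxygen response and drug handling. ALDH1A3, which makes retinoic acid, stood at 116 ± 4.8 FPKM, 31.6 times the next aldehyde dehydrogenase, ALDH3A2. With the coding transcript size they stood at 158 and 14.3, 11.03 times. CLDN11, known from myelin and testis, stood at 141 ± 5.4 FPKM beside CLDN1 at 176 ± 6.3, and exceeded it with the coding transcript size (280 against 183). SOX9, a progenitor factor, stood at 28.4 ± 0.84 FPKM. HIF1A stood at 57.4 ± 4.0, 3.99 times EPAS1. The nucleoside transporter SLC29A1, an entry route for gemcitabine, stood at 8.74 ± 0.41 FPKM, while the concentrative transporters SLC28A1 and SLC28A3 were at 0.0067 and 0.057. RRM1 and RRM2, the subunits of ribonucleotide reductase, stood at 36.6 ± 0.97 and 28.6 ± 0.34 FPKM, an order that turned with the coding transcript size to 50.4 and 71.4.

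Other transcription factor families had members on both sides of 1 FPKM. Of 12 ETS factors 10 reached 1 FPKM, led by ELK3, a RAS-responsive factor, at 42.5 ± 1.3 and ETS1 at 26.7 ± 0.36. FOXM1, a factor of the G2 and M phases, led 14 forkhead genes at 25.5 ± 0.45 FPKM, and FOXA1 (6.67 ± 0.33) overlapped FOXF2 (6.22 ± 0.28), though with the coding transcript size they stood apart at 10.3 and 6.22. STAT6, which answers interleukin 4, stood at 23.6, 23.3 and 24.3 FPKM, 2.69 times STAT3. Among nuclear receptors RXRA, RARG (8.38 ± 0.16) and NR3C1, the glucocorticoid receptor (8.0 ± 0.47), overlapped their neighbours in level. With the coding transcript size RXRA stood at 56.0, RARG at 14.5 and NR3C1 at 10.1. The oestrogen and progesterone receptors were below the threshold, with ESR1 at 3, 0 and 2 counts and PGR at 1, 1 and 0. Of the chromatin writers, DNMT1, the maintenance DNA methyltransferase, stood at 8.21 ± 0.26 FPKM and EZH2, the PRC2 methyltransferase, at 4.89 ± 0.11. Both lay below HDAC1 at 30.8 ± 1.1. With the coding transcript size DNMT1 stood at 23.3, EZH2 at 19.9 and HDAC1 at 57.5, so the gaps were smaller.

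Redox and lipid genes followed. TXN, thioredoxin, stood at 318, 326 and 336 FPKM, 10.4 times its mitochondrial relative TXN2. PRDX1 (250 ± 7.0 FPKM) led 6 peroxiredoxins, which all reached 1 FPKM, and AKR1B1, aldose reductase, stood at 167 ± 3.6, 40.5 times AKR1C3. GSTO1 (138 ± 5.2) and GSTP1 (131 ± 6.9) overlapped, and their order turned with the coding transcript size. In lipid metabolism the cholesterol regulator SREBF2 stood at 12.2, 12.2 and 11.5 FPKM, 3.12 times SREBF1, which is better known for fatty acid synthesis. HMGCS1, a sterol pathway enzyme, stood at 6.04 ± 0.24. FABP5, a fatty acid carrier, stood at 29.1 ± 0.40, 15.4 times FABP4.

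Matrix and adhesion genes were expressed as partly matched chains. Collagen VI is assembled from different chains, and COL6A1 stood at 68.1, 70.7 and 70.8 FPKM and COL6A2 at 74.0, 77.2 and 77.3, while COL6A3 had 10, 8 and 9 counts, a mean of 0.013 FPKM. COL5A2 stood at 20.3 ± 1.1 FPKM and COL5A1 had 0, 3 and 3 counts. The fibroblast collagens COL1A1 (0.81), COL1A2 (0.090) and COL3A1 (0.067) stayed below 1 FPKM. For the basement membrane protein laminin-332, LAMB3 stood at 93.4 ± 2.9 FPKM, while the alpha chain LAMA3 stood at 0.89, 0.97 and 0.99. LAMA5 was the alpha chain above 1 FPKM, at 20.3 ± 0.61. The chains of the laminin-332 receptor stood apart in the same way, with ITGA6 at 24.7 ± 1.2 FPKM and ITGB4 at 1.26 ± 0.055. ITGA3 (85.1 ± 2.5) and ITGB1 (49.0 ± 3.0) led the integrin alpha and beta chains, and MMP14 (47.3 ± 1.1) the matrix metalloproteinases, where MMP2 stood at 0.020 and MMP9 at 0.040. PLAU, urokinase, stood at 235.4 ± 2.1 FPKM.

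Inflammatory mediators were abundant in these cells. IL1B, a cytokine best known from myeloid cells, stood at 183, 184 and 181 FPKM, rank 134 of all genes. CSF3 and CSF2, the colony stimulating factors for granulocytes and macrophages, stood at 110 ± 2.9 and 63.5 ± 2.3 FPKM, IL1A at 77.3 ± 2.5, LIF at 66.4 ± 1.1, IL6 at 17.99 ± 0.52 and TNF at 16.4 ± 0.98. Of 14 cytokines listed, 11 reached 1 FPKM. CXCL8, a chemokine that draws neutrophils, stood at 237, 233 and 207 FPKM and CXCL1 at 210, 211 and 220, so the 2 overlapped. CXCL2 (23.0 ± 0.34 FPKM) and CXCL5 (22.7 ± 1.5) overlapped in turn. The interferon-induced CXCL10 had 2, 0 and 2 counts and stood at 0.040 FPKM, and CXCL12 stood at 0.017. CCL20 (5.18 ± 0.09) was alone among 6 CC chemokines at or above 1 FPKM. None of 17 type I interferon genes reached 1 FPKM and 13 had no count.

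CXCL1, CXCL2, CXCL8 and CXCL10 lie on chromosome 4 and differ widely in level. Their promoters, chosen after their values were seen, are shown with the letters of an NF-kappaB type motif, GGAATTTCC, in capitals where it was found on either strand. Sequences are RefSeq promoters on GRCh38.p14, 250 bases before to 50 after the start, read 5′ to 3′ on the gene's strand, at chr4:73869143-73869442 (CXCL1, plus strand), chr4:74099146-74099445 (CXCL2, minus), chr4:73740319-73740618 (CXCL8, plus) and chr4:76023448-76023747 (CXCL10, minus).
CXCL1: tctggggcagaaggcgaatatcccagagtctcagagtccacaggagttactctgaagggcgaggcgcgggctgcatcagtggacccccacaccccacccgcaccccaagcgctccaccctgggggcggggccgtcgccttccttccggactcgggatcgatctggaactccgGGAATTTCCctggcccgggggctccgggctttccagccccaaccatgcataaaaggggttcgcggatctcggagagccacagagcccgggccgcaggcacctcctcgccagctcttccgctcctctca
CXCL2: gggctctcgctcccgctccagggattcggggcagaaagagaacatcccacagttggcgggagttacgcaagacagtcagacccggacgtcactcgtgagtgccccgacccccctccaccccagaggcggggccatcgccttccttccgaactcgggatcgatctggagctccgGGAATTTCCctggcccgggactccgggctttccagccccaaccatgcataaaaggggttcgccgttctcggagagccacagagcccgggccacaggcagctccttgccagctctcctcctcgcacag
CXCL8: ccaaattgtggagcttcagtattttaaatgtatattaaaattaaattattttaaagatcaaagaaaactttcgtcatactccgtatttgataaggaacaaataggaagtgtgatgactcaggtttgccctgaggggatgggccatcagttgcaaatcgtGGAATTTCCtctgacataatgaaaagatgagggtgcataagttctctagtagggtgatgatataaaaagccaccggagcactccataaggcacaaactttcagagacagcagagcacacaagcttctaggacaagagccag
CXCL10: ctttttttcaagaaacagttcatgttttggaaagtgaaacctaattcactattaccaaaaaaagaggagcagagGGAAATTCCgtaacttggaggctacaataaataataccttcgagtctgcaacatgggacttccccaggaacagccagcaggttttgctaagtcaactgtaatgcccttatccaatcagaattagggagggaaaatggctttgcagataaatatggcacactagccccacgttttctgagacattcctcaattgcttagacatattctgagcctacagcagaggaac
The motif began 78, 77, 91 and 176 bases before the start in CXCL1, CXCL2, CXCL8 and CXCL10, in the last of them on the other strand, where it reads as its reverse complement. It was present in 8 of the 10 CXC chemokine promoters in the table, against 64 of 15320 promoters of protein-coding genes (0.418%), in none of 10 cytokine promoters and in none of 4 CC chemokine promoters. The 4 genes shown span 226 FPKM (CXCL8) to 0.040 (CXCL10). A match describes these exact letters only, and the absence of a match says nothing about other forms of the motif.

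Across all protein-coding genes, the base composition of the promoter differed with level. The median number of CG pairs in 300 bases was 5 for genes with no count, 14 for genes with counts below 1 FPKM, 27 from 1 to 10 and from 10 to 100 FPKM, and 26 at 100 FPKM or more. The letters TATAAA, searched on the gene's strand from 40 to 16 bases before the start, were in 10.1% of promoters of genes with no count, in 1.14% from 1 to 10 FPKM and in 6.70% (12 of 179) at 100 FPKM or more. Genes are not replicates, so these are descriptions of the gene sets.

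**Figure D4:**
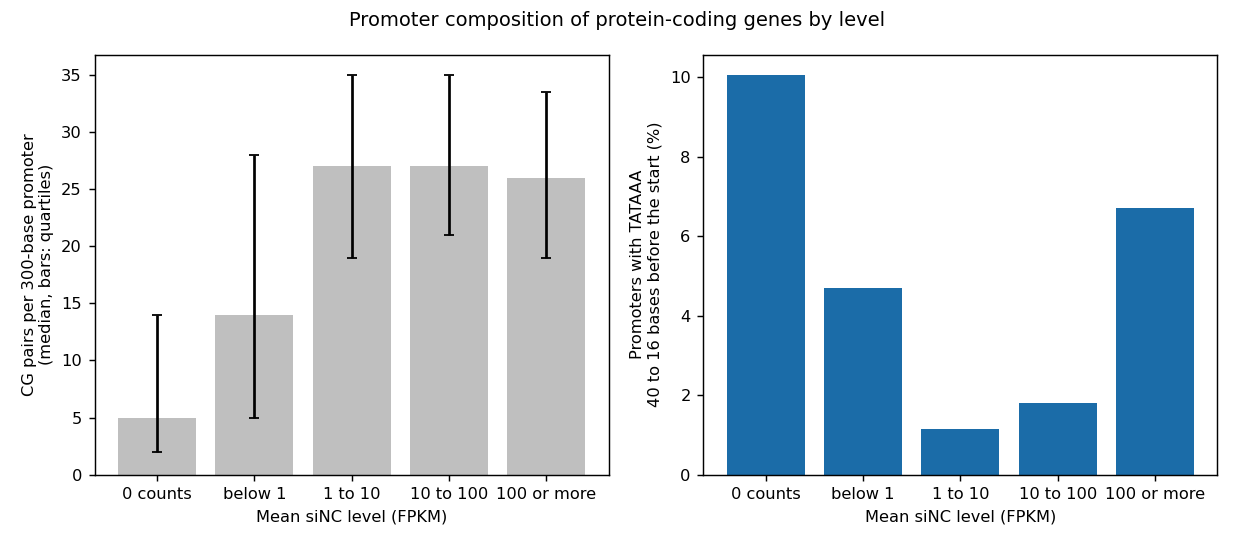
Left, CG pairs per 300-base RefSeq promoter (median, error bars from the lower to the upper quartile) and right, percent of promoters with TATAAA in the window before the start, by mean siNC level of the gene (x axis). The median of CG pairs goes from 5 in genes with no count to 27 from 1 to 10 FPKM, and the TATAAA share is lowest, at 1.14%, from 1 to 10 FPKM.

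Promoters of 3 genes from both ends of the level range, chosen after their values were seen, are printed with CG pairs in capitals to show the contrast between an abundant cytoskeletal gene, an abundant cytokine and a silent keratin. TMSB10 (2009 FPKM) lies at chr2:84905406-84905705 on the plus strand, IL1B (183 FPKM) at chr2:112836730-112837029 on the minus strand and KRT5 (0 counts) at chr12:52520345-52520644 on the minus strand.
TMSB10: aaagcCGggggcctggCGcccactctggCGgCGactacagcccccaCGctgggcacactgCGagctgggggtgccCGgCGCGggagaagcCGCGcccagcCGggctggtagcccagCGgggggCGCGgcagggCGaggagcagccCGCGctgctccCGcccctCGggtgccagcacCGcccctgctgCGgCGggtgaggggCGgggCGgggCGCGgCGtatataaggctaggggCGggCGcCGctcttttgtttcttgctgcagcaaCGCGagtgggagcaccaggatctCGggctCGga
IL1B: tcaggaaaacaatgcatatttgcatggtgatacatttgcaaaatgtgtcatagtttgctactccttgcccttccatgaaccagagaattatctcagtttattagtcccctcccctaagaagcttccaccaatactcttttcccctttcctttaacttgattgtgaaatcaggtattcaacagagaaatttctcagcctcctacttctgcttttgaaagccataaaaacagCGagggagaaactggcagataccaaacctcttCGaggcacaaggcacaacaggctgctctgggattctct
KRT5: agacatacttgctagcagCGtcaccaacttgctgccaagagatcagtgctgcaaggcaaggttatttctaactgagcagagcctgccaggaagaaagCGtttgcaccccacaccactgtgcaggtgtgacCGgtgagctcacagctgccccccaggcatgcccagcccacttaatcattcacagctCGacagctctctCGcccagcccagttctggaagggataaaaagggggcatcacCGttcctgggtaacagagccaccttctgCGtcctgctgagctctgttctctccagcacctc
TMSB10 held 35 CG pairs, IL1B 2 and KRT5 7. IL1B, at rank 134, had fewer than the median of genes without any count, while the 7 of KRT5 lay within the quartiles of those genes (2 to 14).

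The HOX genes, which record position along the body axis in 4 clusters, differed in level between clusters. The HOXB cluster on chromosome 17 was the highest, with 9 of 10 genes at or above 1 FPKM and a sum of 70.2. HOXB7 stood at 17.5, 17.1 and 18.2 FPKM, HOXB4 at 12.6, 14.4 and 14.2, and HOXB9 at 8.33, 8.60 and 9.20, while HOXB1, at the 3′ end, had 2 counts in all. With the coding transcript size HOXB7 stood at 19.5, HOXB2 at 11.6, HOXB9 at 8.73 and HOXB4 at 7.31. The HOXD cluster on chromosome 2 had 7 of 9 genes at or above 1 FPKM and a sum of 26.5, led by HOXD4 at 8.32 ± 0.64. HOXC on chromosome 12 had 5 of 9 and a sum of 24.6, and HOXA on chromosome 7 had 6 of 11 and a sum of 19.7. The most 5′ genes differed between clusters. HOXB13 stood at 4.08 ± 0.39 FPKM and HOXC13 at 5.18 ± 0.16, while HOXA13 stood at 0.32 and HOXD13 at 0.027. Next to these ends, HOXA11, HOXC11 and HOXC12 had 0 counts and HOXD12 stood at 0.043 FPKM.

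**Figure D5:**
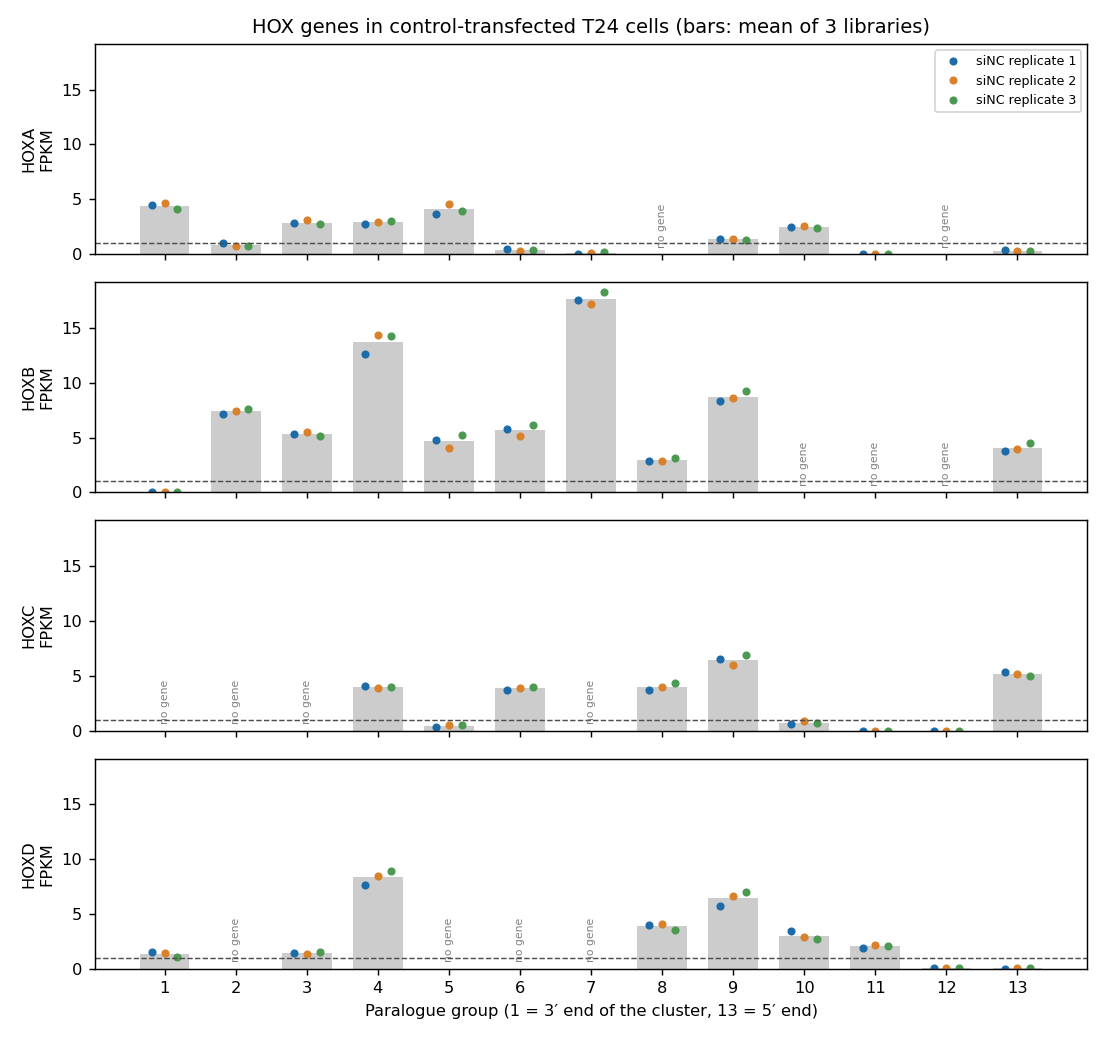
FPKM of each HOX gene by paralogue group (x axis) in the A, B, C and D clusters (panels, same y axis), with bars for the mean and points for the 3 siNC libraries. The tallest bars are HOXB7 at 17.6 and HOXB4 at 13.7 FPKM, and the 3 points of a gene lie close to its bar.

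Antigen presentation and stress genes also differed in level between relatives. HLA-E, a class I molecule read by natural killer cells, stood at 93.0 ± 3.4 FPKM, and HLA-C and HLA-B overlapped at 10.5 ± 0.96 and 10.2 ± 0.87. Alleles of these genes differ from the reference and their reads may be shared between them. MT2A, a metallothionein, stood at 260 ± 22 FPKM and MT1E at 111 ± 4.2. MCL1 (80.2 ± 1.3) led the antiapoptotic BCL2 genes, and BCL2 itself stood at 0.68.

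Noncoding genes contributed little mass. Of 14697 long noncoding genes 567 reached 1 FPKM, and together they held 1.21% ± 0.014 of the summed FPKM. NORAD, an abundant cytoplasmic RNA, stood at 68.1, 68.6 and 62.9 FPKM, followed by the small nucleolar RNA hosts GAS5 (42.9 ± 2.6) and SNHG29 (37.0 ± 0.59). NEAT1 stood at 23.5 ± 0.41, while MALAT1, a nuclear RNA abundant in most cells, stood at 0.59 ± 0.051 with 193, 168 and 178 counts. Whether the authors' counting lowered the MALAT1 value was not tested, so its level in these cells is uncertain. Of 15142 pseudogenes 399 reached 1 FPKM, the highest being RPL36AP37 at 506 ± 32, a copy of a ribosomal protein gene from which reads cannot be told apart with certainty.

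Most genes of several tissue-restricted families were below the threshold. Of 389 olfactory receptor genes none reached 1 FPKM and 312 had no count. All 19 late cornified envelope genes, 36 of 39 beta defensins and 72 of 94 keratin-associated protein genes had no count, and of the last group KRTAP2-3 alone reached 1 FPKM, at 1.79 ± 0.23. None of 24 bitter taste receptors reached 1 FPKM, though only 11 had no count. Of 40 voltage-gated potassium channels 2 reached it, of 53 clustered protocadherins 2, led by PCDHGC3 at 12.8 ± 0.50 FPKM, and of 55 cytochromes P450 6. In contrast 85 of 89 cytosolic ribosomal protein genes and 36 of 39 proteasome subunits reached 1 FPKM. The 280 of 519 ZNF genes that did (53.9%) compare with 51.1% of all protein-coding genes.

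Some low values belong to genes that most cells use. EIF4A1, a translation helicase, stood at 1.397 ± 0.083 FPKM with 222, 202 and 209 counts, and its exons share a strand with SENP3-EIF4A1 and ENSG00000264772. CDC42, a small GTPase, stood at 0.44 ± 0.036 FPKM over an exonic size of 24398 bases, beside ENSG00000289694 on the same strand. Among protein-coding genes with at least 50% of their span covered by another protein-coding gene on the same strand, 35.1% (522 of 1487) reached 1 FPKM, against 52.5% (9599 of 18286) of the others. Whether the authors' counting set reads in shared exons aside was not tested, and the levels of such genes are uncertain.

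The spread between libraries was small for most genes. The coefficient of variation, the SD over the mean of 3 libraries, had a median of 4.61% over 11337 genes with a mean of at least 10 counts, where counting alone gives 3.30%. For the 338 genes with 10000 counts or more it was 2.64%, against 0.795% from counting. A few genes departed from this. TTR had 413, 467 and 1030 counts and MT1M, a metallothionein, 72, 65 and 164, in both cases with replicate 3 highest. PI4K2B had 1009, 1071 and 647 counts, with replicate 3 lowest. SMN1 had 624, 1400 and 864 counts and its near-identical copy SMN2 609, 445 and 724, so the library highest for SMN1 was the lowest for SMN2, and division of reads between the copies was not tested. Of the 11337 genes, 34, 22 and 31 were at least 1.5 times above both other libraries in replicates 1, 2 and 3. Replicate 3 also differed by gene size, with a median log2 ratio to the others of 0.05 in the quartile of shortest genes and -0.05 in the quartile of longest.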

How the data were processed

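RNA was extracted with TRIzol and sequenced from T24 cells, per the labels' protocols. Raw counts and FPKM values of 63241 genes were deposited for each sample, per the file headers. The submitters' processing notes name cutadapt 2.6, HISAT2 2.2.1 and GRCh38. The counter, annotation release and strand setting are not given in the sources used here, so reads of genes that overlap on opposite strands may be mixed. The library totals that the deposited FPKM values imply are 1.19 times the summed gene counts.

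Levels are the mean deposited FPKM of the 3 siNC libraries with its SD, computed with pandas 2.3.3 and NumPy 2.4.6. Groups and replicates come from the sample titles. No test was run, since only 1 group is described. Biotypes and the alternative transcript sizes come from GENCODE release 29, which matched 92.1% of gene IDs. Where a symbol occurs more than once, the gene with the most counts was used. For genes without counts, the highest level allowed was taken as 3 counts over the 3 libraries. TMM factors (edgeR 4.0.16) were used as an alternative for the spread. The steps were tested on simulated data.

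The genes and the 162 lists (14 of markers, 142 families, 6 pathways) were chosen with earlier results of these data known. The lists name 956 genes, of which 955 were measured and GSTT1 is not analysed here. The text names the 30 highest nuclear protein-coding genes, the highest genes of other biotypes, up to 4 members of each marker list with those at 0, leading and next family members, pathway members, the 10 most variable genes at 5 FPKM or more and genes nearest the threshold. Only part of that selection is described, and other members, HOX genes and low genes with shared exons were chosen after their values were seen. Some genes are not reported here.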

Additional observations from a re-analysis of the deposited data

How the results depend on the processing

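The number of genes at or above 1 FPKM was 11460 to 11472 when each replicate was left out, 9409 at a threshold of 2 FPKM, 13460 at 0.5, 16001 in TPM, 11060 where every library had to reach 1, and 10715 with the coding transcript size. The last of these, and a minimum mean count of 10 (11337 genes), were chosen after seeing the data. The share of the 50 highest genes moved from 30.1% to 16.7% over nuclear protein-coding genes, 15.4% in CPM without division by size, and 26.9% with the coding transcript size, and ran from 29.8 to 30.3% when each replicate was left out. Families with a clear leading member numbered 136 to 139 and members below 1 FPKM 296 to 299 when each replicate was left out. The leading member changed in at most 2 of 142 families without a replicate, in 23 in CPM and in 16 with the coding transcript size. That size raised 632 listed levels by a median of 1.42 times (10th to 90th percentile 1.00 to 2.86), and 544 of them moved by more than the SD over libraries. The spread was 4.59% with TMM factors. No paired analysis was possible because a single group is described and no test between groups was run. Reads carry no molecular identifiers, so floors cover counting error only.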
